A study of Mus musculus with 6 samples.

Results

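The genes examined here are 10 genes of transforming growth factor beta (TGF-beta) signalling. They are the ligand Tgfb1, the receptors Tgfbr1 and Tgfbr2, the Smad genes Smad2, Smad3, Smad4 and Smad7, the Smad co-repressors Ski and Skil, and the induced gene Tgfbi. They were taken by symbol from the deposited gene tables, and all 10 had a row among the 35237 genes of the Cufflinks table and among the 36536 entries of the ALEXA-Seq table. The study compared the cell types to find markers by which blood-borne and resident myeloid cells of the brain might be told apart. RNA-Seq libraries were made from sorted monocytes of the bone marrow (BMDM) and microglia of the brainstem (BSM). The BMDM gate took CD11b+ Ly6G- cells high in CD45 and positive for CD115, and the BSM gate took CD11b+ Ly6G- cells low in both. Both came from C57BL/6 mice 6 weeks old, with no genetic change or treatment named in the labels, and each library was made from cells pooled over several mice, so that no value belongs to 1 animal. There were 3 biological replicates of each cell type, and the labels give replicate 1 of each as male and replicates 2 and 3 as female. The study's RNA quality assessment lists the same sexes, whereas its main text names male mice. The labels were followed here.

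TGF-beta is secreted in a latent form that has to be released before it can bind. The active ligand joins the type II receptor TGFBR2 to the type I receptor TGFBR1, which phosphorylates SMAD2 and SMAD3; these pair with SMAD4, enter the nucleus and bind the short DNA sequence called the Smad box, while SMAD7 blocks the type I receptor and SKI and SKIL hold Smad-bound genes repressed. In the brain, TGF-beta is known as a signal that microglia need to acquire and keep their mature identity.

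Values are FPKM from Cufflinks, that is, fragments scaled to the length of the transcript and to the mapped reads of the library, and a second set of values made from the same reads with ALEXA-Seq, on a linear scale whose unit is not given in the sources used here. The second set is therefore no independent measurement. Neither table holds read counts, so the number of reads behind a single value is unknown, although the study describes the mapped reads as similar between libraries. The FPKM of all genes summed to 163199 to 194184 in the BMDM libraries and to 68288 to 75021 in the BSM libraries, so that the mean BMDM sum was 2.50 times the mean BSM sum. BSM replicate 1 stood apart, with 472 of the 6364 tested genes at 0 against 51 to 115 in the other libraries. It is the male library of its type and also the one for which the study's RNA quality assessment lists the least RNA and by far the lowest RNA integrity, so these properties cannot be told apart. The sorted populations carried the markers P2ry12 and Ccr2, whereas the transcript of Csf1r, which encodes CD115, ran opposite to the gate. Csf1r was at 19.1 to 21.3 FPKM in BMDM and at 102 to 158 FPKM in BSM. P2ry12, a purinergic receptor of microglia, was at 130 to 209 FPKM in BSM and at 0.0311 to 0.288 in BMDM, and Ccr2, the chemokine receptor of inflammatory monocytes, was at 136 to 166 FPKM in BMDM and at 0.0129 to 0.408 in BSM. Itgam, which encodes CD11b, was listed at 0 FPKM in BSM replicate 2 and lay between 100.5 and 176.5 FPKM in the other libraries, so a value of 0 in this table need not mean that a transcript was absent.

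Between the cell types, 6 of the 10 genes were higher in BSM, namely Tgfbr1, Tgfbr2, Smad3, Smad7, Ski and Skil. Tgfb1, Smad4 and Tgfbi were higher in BMDM, and Smad2 did not pass the threshold. The calls were made with limma on log2(FPKM + 1) over the 6364 genes that reached 3 FPKM in 1 or more libraries, at a Benjamini-Hochberg adjusted p under 0.05. Of all tested genes, 9.22% were called higher in BSM and 45.3% higher in BMDM. All 10 genes passed the FPKM minimum, but only Tgfbr1, Smad2 and Skil reached it in both cell types. Tgfbr2, Smad3, Smad7 and Ski reached it only in BSM and Tgfb1, Smad4 and Tgfbi only in BMDM, so some difference in these 7 was built into their entry and the count of calls is no support in itself. In FPKM none of the 10 genes overlapped between the groups, 6 lying wholly higher in BSM and 4, Smad2 included, wholly higher in BMDM, as did 11.6% and 55.2% of tested genes. In the ALEXA-Seq values this held for the same genes apart from Smad2, against 14.6% and 51.5%. There the same 6 genes were called higher in BSM and the same 3 higher in BMDM, beside 10.9% and 37.1% of tested genes called in those directions. The median log2 fold change (BSM minus BMDM) was 1.69 for the 10 genes and -0.81 for all tested genes.

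**Figure D1:**
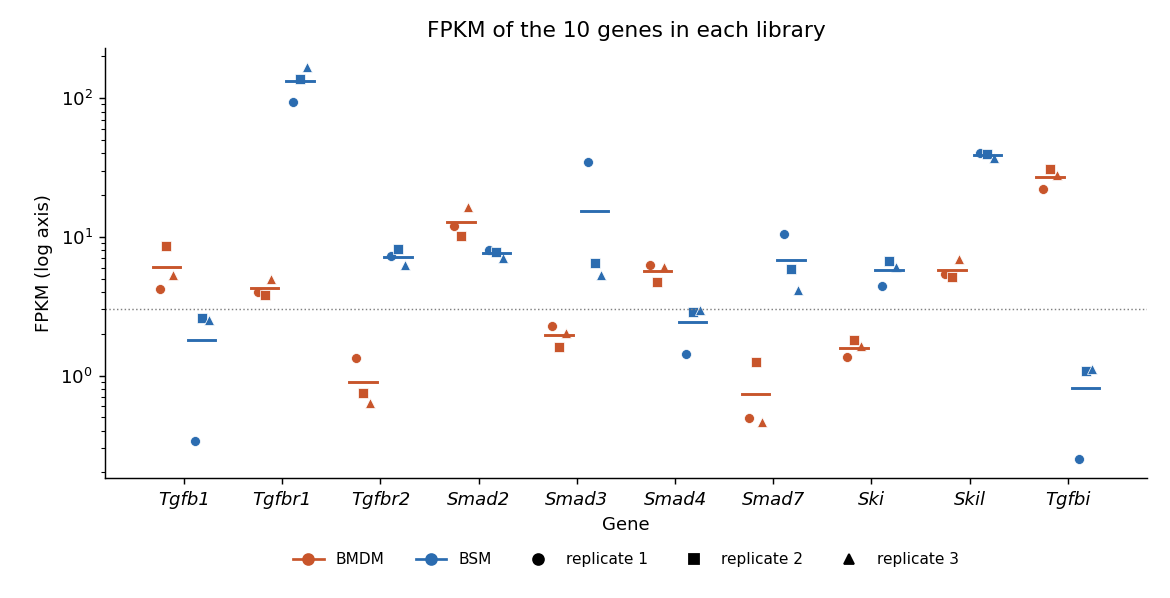
FPKM (log axis) of each gene in the 3 BMDM and the 3 BSM libraries; symbols mark replicates, horizontal bars the group means and the dotted line the FPKM minimum of 3. For Tgfbr1 the BSM libraries lie between 94.1 and 166 FPKM and the BMDM libraries between 3.81 and 5.00. For Smad3 the BSM mean is raised by replicate 1 at 34.4 FPKM, while the others, at 6.49 and 5.30, also lie above every BMDM library.

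Tgfbr1, the type I receptor that carries the kinase signal to the Smads, had the largest log2 fold change of FPKM among the 10 genes, Tgfbi being ahead of it in the ratio of means and in the ALEXA-Seq values. Its FPKM was 4.03, 3.81 and 5.00 in BMDM replicates 1 to 3 and 94.1, 138 and 166 in BSM replicates 1 to 3. Every BSM library lay far above every BMDM library, and the ratio of the means was 31.0. The log2 fold change was 4.63, with a standard error (SE) of 0.27 (limma adjusted p = 1.22e-05), and 0.471% of tested genes had a larger one. In the ALEXA-Seq values the log2 fold change was 5.01 (SE 0.28, limma adjusted p = 4.58e-05). Among all 35237 genes ranked by FPKM, Tgfbr1 stood at places 87, 50 and 37 in the BSM libraries and at places 3667, 4481 and 3524 in the BMDM libraries. The gene lies on chromosome 4 from 47366094 to 47427803 in the mm9 coordinates of the file. In pools of sorted cells, fewer cells with a transcript and less of it per cell cannot be told apart, which applies to every value given here.

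Tgfbr2, the type II receptor that binds the ligand first, was low in BMDM, with 1.33, 0.742 and 0.633 FPKM in replicates 1 to 3. In BSM it was at 7.24, 8.16 and 6.24 FPKM, so the groups did not overlap and the BSM replicates differed little. The ratio of the means was 7.99, with a log2 fold change of 2.12 (SE 0.25, limma adjusted p = 0.000376) in FPKM and 3.11 (limma adjusted p = 0.000614) in the ALEXA-Seq values. Tgfbr2 spans 115993415 to 116084383 on chromosome 9 (mm9). Endothelial cells also carry TGF-beta receptors. The 11 endothelial markers summed to 6.25 to 8.33 FPKM in BMDM and to 2.22 to 4.30 in BSM, most of it from Slc2a1, Pecam1 and Flt1. Cldn5 and Tie1 were at 0 in all BSM libraries, and Slco1c1 and Esam were at 0 in all BMDM libraries. The part of such cells in the receptor values was not tested.

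The 2 receptors did not differ by the same factor. Within a library, the ratio of Tgfbr1 to Tgfbr2 FPKM was 3.02, 5.13 and 7.90 in BMDM and 13.01, 16.9 and 26.7 in BSM. Such a ratio does not depend on how libraries are scaled. The mean log2 ratio was 2.31 ± 0.69 (SD, n = 3) for BMDM against 4.17 ± 0.52 (SD, n = 3) for BSM, a difference of 1.86, and the groups did not overlap (two-sided exact permutation p = 0.1, the smallest that 3 against 3 libraries allow). The ALEXA-Seq values gave a difference of 1.85. Tgfbr1 made up 91.3 to 93.4% of the summed FPKM of the 7 type I receptors of the TGF-beta family in BSM and 25.7 to 34.8% in BMDM. Tgfbr2 made up 18.4 to 23.7% of the summed FPKM of the 4 type II receptors in BSM and 2.72 to 5.04% in BMDM. Most of the type II transcript in both cell types was thus from other genes, led by Bmpr2, the type II receptor for bone morphogenetic proteins (BMPs), whose mean was 20.0 FPKM for BMDM and 20.9 FPKM for BSM.

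The sequences before the transcription starts of both receptors and of Tgfbi are shown because these genes belong to the same pathway, in which Tgfbi is known as an induced gene, yet lay at opposite ends of the comparison. They are the 250 bases upstream of the start in the RefSeq annotation of GRCm38, a later build than that of the file, matched by symbol, in the direction of transcription. Of the 10 genes, 6 had an entry. Capitals mark matches on either strand to the Smad box (CAGAC) and to a PU.1-like ETS motif (GAGGAA), PU.1 being the master factor of myeloid cells.
Tgfbr1, first start (chr4:47352972-47353221, plus strand): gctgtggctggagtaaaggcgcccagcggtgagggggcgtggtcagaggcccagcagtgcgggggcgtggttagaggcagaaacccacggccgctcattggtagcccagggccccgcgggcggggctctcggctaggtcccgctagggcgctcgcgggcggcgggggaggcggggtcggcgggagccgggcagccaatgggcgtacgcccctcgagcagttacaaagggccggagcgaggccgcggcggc
Tgfbr1, second start (chr4:47385966-47386215, plus strand): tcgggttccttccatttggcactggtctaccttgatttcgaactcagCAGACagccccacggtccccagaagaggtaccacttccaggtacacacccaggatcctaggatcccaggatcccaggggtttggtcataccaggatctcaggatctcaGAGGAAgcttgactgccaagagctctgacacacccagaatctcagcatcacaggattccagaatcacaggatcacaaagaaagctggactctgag
Tgfbr2 (chr9:116175364-116175613, minus strand): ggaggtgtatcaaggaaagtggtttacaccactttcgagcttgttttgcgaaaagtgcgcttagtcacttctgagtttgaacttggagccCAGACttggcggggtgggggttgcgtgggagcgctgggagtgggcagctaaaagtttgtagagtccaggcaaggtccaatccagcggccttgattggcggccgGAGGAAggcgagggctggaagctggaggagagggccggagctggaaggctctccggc
Tgfbi (chr13:56609336-56609585, plus strand): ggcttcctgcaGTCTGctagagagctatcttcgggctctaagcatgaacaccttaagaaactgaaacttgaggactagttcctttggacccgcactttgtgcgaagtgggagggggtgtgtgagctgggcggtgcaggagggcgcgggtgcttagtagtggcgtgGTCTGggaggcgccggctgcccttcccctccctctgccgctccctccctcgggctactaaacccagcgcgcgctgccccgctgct

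Tgfbi held the Smad box letters at 239 and 85 bases before its start, on the opposite strand. Tgfbr2 held the Smad box at 160 bases and the PU.1-like motif at 57 bases before its start. The second Tgfbr1 start held them at 203 and 95 bases, and the first Tgfbr1 start, like the windows of Tgfb1, Smad3 and Ski, held neither. No window of the 6 genes held the AP-1 motif (TGACTCA). Of 32851 such windows over all genes, 42.2% held the Smad box, 23.3% the PU.1-like motif and 4.46% the AP-1 motif, so matches of this kind are common. The windows of the first Tgfbr1 start, Tgfb1 and Ski were rich in G and C, at 74.8%, 75.2% and 87.6% against a median of 52.4%. The matches are a description of the letters only, and binding was not measured in these libraries.

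Of Smad2 and Smad3, the Smads that the TGF-beta receptor phosphorylates, only Smad3 was called. Smad3 was at 2.26, 1.603 and 2.01 FPKM in BMDM and at 34.4, 6.49 and 5.30 FPKM in BSM. All BSM libraries lay above all BMDM libraries, but BSM replicate 1 was far above the other BSM libraries. The log2 fold change was 2.01 (SE 0.61, limma adjusted p = 0.0242), and without BSM replicate 1 it was 1.22 (limma adjusted p = 0.00279). The call was lost without any 1 of the BMDM libraries (limma adjusted p = 0.0690, 0.0923 and 0.0731 without replicates 1, 2 and 3), with no FPKM minimum (0.101) and against a minimum change of 1.5-fold (0.0717). In the ALEXA-Seq values BSM replicate 1 stood out less, with 138 against 87.2 and 76.8 in the other BSM libraries and 21.2 to 24.1 in BMDM, and the log2 fold change was 2.09 (SE 0.32, limma adjusted p = 0.00222). Smad3 lies on chromosome 9 from 63494574 to 63605801 (mm9).

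Smad2 was at 11.9, 10.2 and 16.3 FPKM in BMDM and at 8.06, 7.79 and 7.03 FPKM in BSM. The BMDM values lay above the BSM values without overlap, but close to them. The log2 fold change of -0.66 (SE 0.25) missed the threshold (limma adjusted p = 0.0534). It passed without BSM replicate 1 (limma adjusted p = 0.0364) or BMDM replicate 2 (limma adjusted p = 0.0416) and with library weights (-0.90, limma adjusted p = 0.000446). It turned to 0.12, 0.10 and 0.54 with upper quartile scaling, quantile normalization and scaling of all libraries to the same sum. In the ALEXA-Seq values the groups overlapped, with a log2 fold change of -0.47 (limma adjusted p = 0.147). There it passed without BSM replicate 1 (limma adjusted p = 0.0345), with library weights (0.000556) and with the female libraries alone (0.0480). At the same sum it passed in the other direction (limma adjusted p = 0.0454). The direction of Smad2 therefore depended on the scaling.

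Relative to each other, the Smad2 and Smad3 transcripts differed between the cell types. The ratio of Smad3 to Smad2 FPKM was 0.190, 0.157 and 0.123 in the BMDM libraries and 4.27, 0.833 and 0.754 in the BSM libraries. The groups did not overlap, with a difference of 3.17 in the mean log2 ratio (two-sided exact permutation p = 0.1) that became 2.36 without BSM replicate 1 and 2.61 in the ALEXA-Seq values. Of the summed FPKM of the 5 receptor-regulated Smads, Smad3 made up 8.55 to 12.4% in BMDM and 26.0 to 71.1% in BSM, the highest share being that of BSM replicate 1.

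Smad4, the shared partner of the receptor-regulated Smads, was at 6.23, 4.76 and 6.04 FPKM in BMDM and at 1.44, 2.88 and 2.97 FPKM in BSM. BMDM lay above BSM in every library, and BSM replicate 1 had the lowest value. Its log2 fold change was -0.99 (SE 0.28, limma adjusted p = 0.0182) in FPKM, close to the median of all tested genes, and the ALEXA-Seq mean of BMDM was 1.99 times that of BSM (limma adjusted p = 0.0384). With the libraries scaled to the same sum it turned to 0.03, and no other scaling kept the call (limma adjusted p = 0.411 with upper quartile scaling and 0.495 with quantile normalization). The call was also lost without BMDM replicate 1 or 3 (limma adjusted p = 0.0634 and 0.0776) and against a minimum change of 1.5-fold (0.198).

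Smad7, the inhibitory Smad that TGF-beta itself induces as feedback, was among the genes higher in BSM. It was at 0.494, 1.26 and 0.461 FPKM in BMDM and at 10.5, 5.83 and 4.13 FPKM in BSM, with the highest value in BSM replicate 1 and no overlap. The ratio of the means was 9.27, and the log2 fold change was 2.12 (SE 0.36, limma adjusted p = 0.00203) in FPKM and 3.33 (limma adjusted p = 0.00346) in the ALEXA-Seq values. The ratio of Smad7 to Smad4 FPKM was 0.0793, 0.264 and 0.0763 in BMDM and 7.34, 2.02 and 1.39 in BSM. In each BMDM library Smad4 thus exceeded Smad7 and in every BSM library Smad7 exceeded Smad4. The mean log2 ratio differed by 4.55 (two-sided exact permutation p = 0.1), by 3.84 without BSM replicate 1 and by 4.45 in the ALEXA-Seq values. Smad2, Smad4 and Smad7 all lie on chromosome 18, with Smad4 from 73798663 to 73863434, Smad7 from 75527183 to 75555589 and Smad2 from 76401563 to 76464962 (mm9).

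Skil, which encodes the co-repressor SnoN that is degraded on TGF-beta signalling and then induced again, was at 5.39, 5.15 and 6.88 FPKM in BMDM and at 40.5, 39.7 and 37.3 FPKM in BSM. The coefficient of variation of the BSM replicates was 4.21%, the smallest among the 10 genes in either cell type. The ratio of the means was 6.74, with a log2 fold change of 2.57 (SE 0.22, limma adjusted p = 6.98e-05) in FPKM and 2.87 (limma adjusted p = 0.000116) in the ALEXA-Seq values. Skil ranked at places 227 to 234 of all genes in BSM and 2805 to 3670 in BMDM. Ski, its relative, was at 1.35, 1.79 and 1.63 FPKM in BMDM and at 4.44, 6.73 and 6.10 FPKM in BSM, again without overlap. Its ratio of means was 3.62 and its log2 fold change 1.37 (SE 0.24, limma adjusted p = 0.00257) in FPKM and 1.84 (limma adjusted p = 0.00282) in the ALEXA-Seq values. The ratio of Skil to Ski was 3.98, 2.88 and 4.22 in BMDM and 9.12, 5.89 and 6.12 in BSM, a difference of 0.92 in the mean log2 ratio (two-sided exact permutation p = 0.1). Skil lies on chromosome 3 from 30993980 to 31021499 and Ski on chromosome 4 from 154528184 to 154596701 (mm9).

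**Figure D2:**
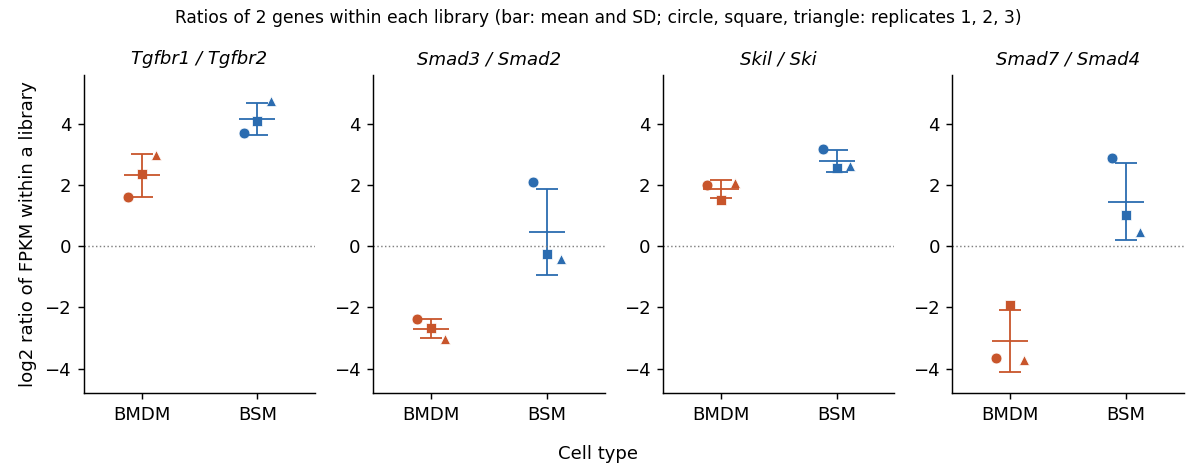
Log2 ratio of FPKM of 2 genes within each library, with points for replicates 1 to 3 and bars for the mean and SD (n = 3); the dotted line marks equal FPKM. In each of the 4 pairs every BSM library lies above every BMDM library, and Smad7 / Smad4 passes from below the line in BMDM to above it in BSM.

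For all 4 ratios, 0.1 was also the p adjusted over the 4 pairs, as all were at the smallest value possible. The plot of ratios shows that BSM replicate 1 had the highest ratio of its group for Smad3 to Smad2, Skil to Ski and Smad7 to Smad4 and the lowest for Tgfbr1 to Tgfbr2.

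Tgfb1, the ligand made by many blood cells, was higher in BMDM. It was at 4.18, 8.63 and 5.28 FPKM in BMDM and at 0.335, 2.61 and 2.50 FPKM in BSM, the groups not overlapping but varying by 38.4% and 70.7% (coefficients of variation). The ratio of the BMDM mean to the BSM mean was 3.32. Its log2 fold change was -1.41 (SE 0.44, limma adjusted p = 0.0282) in FPKM and -1.70 (SE 0.57, limma adjusted p = 0.0460) in the ALEXA-Seq values. The call was lost without BMDM replicate 2 or 3 (limma adjusted p = 0.113 and 0.0767), and under all 3 other scalings, where the log2 fold change lay between -0.81 and -0.49 (limma adjusted p = 0.146 to 0.478). It was also lost with a pseudocount of 0.1 (limma adjusted p = 0.0609), with no FPKM minimum (0.0997) and against a minimum change of 1.5-fold (0.126). BMDM replicate 2, with the highest Tgfb1 value, also had the highest sum of the 11 granulocyte markers, 530 FPKM against 71.7 and 115 in the other BMDM libraries, and of the erythroid markers, 130 FPKM against 29.6 and 19.6. The platelet and megakaryocyte markers, by contrast, summed to 1.67 FPKM there and to 8.17 FPKM in BMDM replicate 3. The part of these cells in the Tgfb1 values was not tested. Tgfb1 made up at least 99.3% of the summed FPKM of the 3 TGF-beta ligands in every library, Tgfb2 and Tgfb3 being at or near 0. It spans 26472574 to 26490095 on chromosome 7 (mm9).

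Tgfbi, a secreted matrix protein named for its induction by TGF-beta, had the largest difference in favor of BMDM. Its FPKM was 21.9, 30.7 and 27.8 in BMDM and 0.251, 1.09 and 1.11 in BSM. The groups lay far apart, and BSM replicate 1 was the lowest library. The ratio of the BMDM mean to the BSM mean was 32.9. In log2 terms the change was -3.97 (SE 0.29, limma adjusted p = 3.38e-05) in FPKM and -5.08 (SE 0.59, limma adjusted p = 0.000635) in the ALEXA-Seq values, and 2.03% of tested genes had a lower value in FPKM. Tgfbi spans 56710947 to 56740711 on chromosome 13 (mm9).

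**Figure D3:**
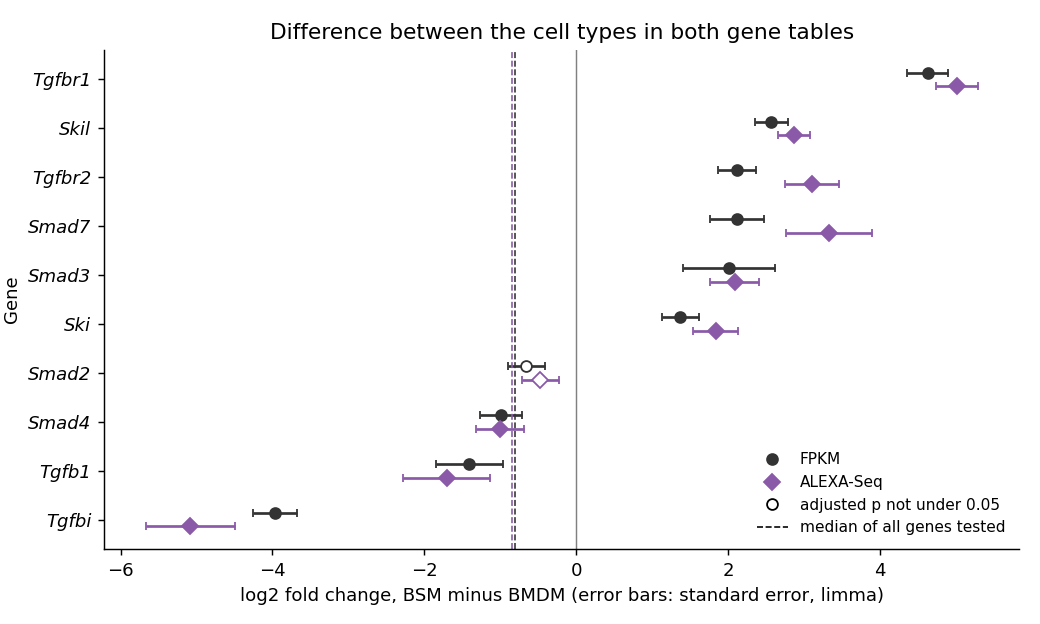
Log2 fold change (BSM minus BMDM) of each gene with its standard error from limma, in FPKM (circles) and ALEXA-Seq values (diamonds); open symbols have an adjusted p that is not under 0.05 and dashed lines mark the median of all genes tested. Tgfbr1 stands at 4.63 and 5.01, Tgfbi at -3.97 and -5.08, and Smad4 lies beside the median lines at -0.81 and -0.84.

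The median of all tested genes, -0.81, was itself below 0, so each fold change was also computed with the libraries scaled in other ways. The median became -0.14 with upper quartile scaling, -0.02 with quantile normalization and 0.23 with all libraries at the same sum. Tgfbr1, Tgfbr2, Smad3, Smad7, Ski and Skil kept their calls in favor of BSM under all 3, and Tgfbi kept its call in favor of BMDM, whereas Tgfb1 and Smad4 lost theirs. Tgfbr1 ranged from 4.63 to 5.83 and Tgfbi from -3.97 to -3.09 over the 4 scalings. The share of tested genes called higher in BSM was 16.5%, 19.3% and 24.9% under these 3 scalings, and the share called higher in BMDM was 21.7%, 21.7% and 15.2%. The 4 female libraries alone were an alternative chosen after the values were seen. In FPKM the 6 calls for BSM and the 3 for BMDM remained with them, each for the same gene, Smad3 with a limma adjusted p of 0.00493. In the ALEXA-Seq values 6 genes were called higher in BSM and 4 higher in BMDM, Smad2 being added (limma adjusted p = 0.0480). The share of all tested genes called was not computed for the female libraries.

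**Figure D4:**
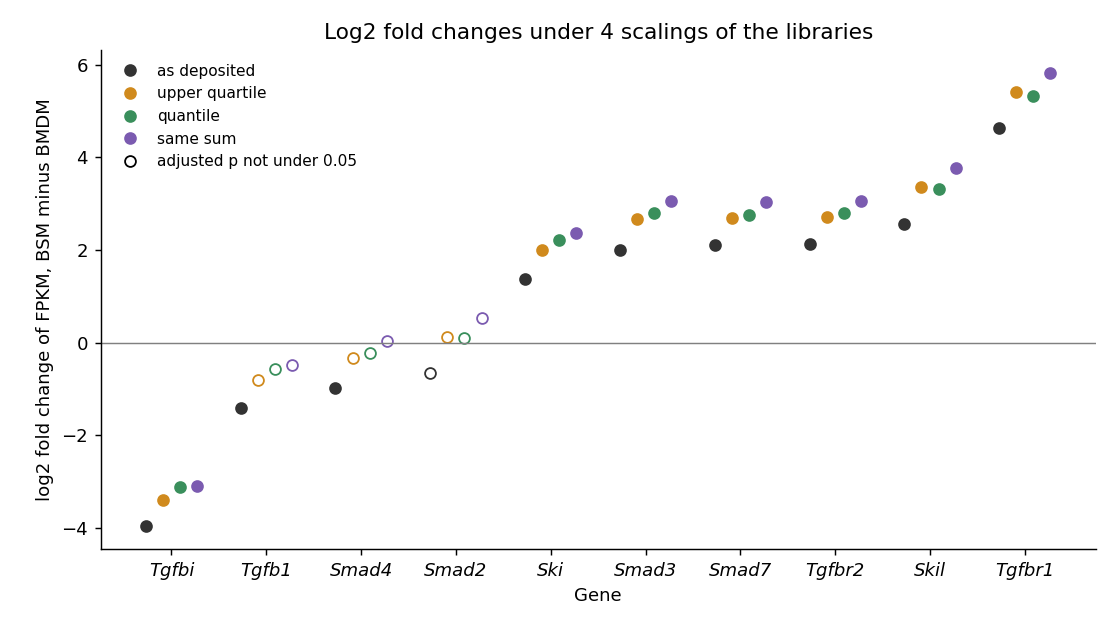
Log2 fold change of FPKM (BSM minus BMDM) of each gene with the values as deposited and under 3 other scalings of the libraries; open circles have a limma adjusted p that is not under 0.05. The 6 genes on the right stay above 0 and filled, Tgfbi stays below 0 and filled, and Smad4 and Smad2 cross 0.

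The order of the levels per length differed between the cell types. In BMDM, Tgfbi was highest at 26.8 ± 4.47 FPKM (SD, n = 3), followed by Smad2 at 12.8 ± 3.18, without overlap between them. Tgfb1, Skil, Smad4 and Tgfbr1 followed between 6.03 and 4.28 FPKM with overlapping neighbours, then Smad3 and Ski, which overlapped each other, and last Tgfbr2 and Smad7, which did as well. In BSM, Tgfbr1 was highest at 133 ± 36.4 FPKM and Skil next at 39.2 ± 1.65, each without overlap with the next. Smad3, Smad2, Tgfbr2, Smad7 and Ski followed between 15.4 and 5.76 FPKM, each overlapping the next of these 5. Smad4, Tgfb1 and Tgfbi came last between 2.43 and 0.814 FPKM, Smad4 overlapping Tgfb1 and Tgfb1 overlapping Tgfbi, whereas Ski and Smad4 did not overlap. Tgfbi thus stood at the first place in BMDM and at the last in BSM.

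The other genes of the pathway were taken from lists by role, 112 genes in all. Of these, 111 had a row and 55 passed the FPKM minimum. Of the genes named below, Bmpr1a, Smad1, Smad5, Ppp1r15a, Tgif2, Zeb1, Pmepa1 and Nuak1 reached it only in BSM. Fn1, Rbl1, Runx3, Klf10 and Id2 reached it only in BMDM. Some difference in these genes was thus built into their entry, and the counts of calls are no support in themselves. Among the 55, 9 were called higher in BSM and 20 higher in BMDM, and 26 did not pass the threshold, beside 9.22% and 45.3% of all tested genes called in these directions, with a median log2 fold change of -0.56 against -0.81 for all tested genes. The 20 calls for BMDM fell to 7, 7 and 4 under upper quartile scaling, quantile normalization and the same sum, and the 9 for BSM became 14, 16 and 20, beside the shares of all tested genes given above for these scalings.

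None of the 14 other ligands of the family that were listed passed the minimum in either cell type. Of the genes for latency and activation, 4 were tested. Itgav, the integrin alpha chain that helps release the active ligand, was at 14.8, 7.30 and 9.89 FPKM in BMDM and at 33.5, 38.6 and 45.7 FPKM in BSM (log2 fold change 1.83, limma adjusted p = 0.00154). Lrrc33, which holds latent TGF-beta at the surface of myeloid cells and microglia, was lower in BSM, at 6.96 ± 0.830 FPKM, than in BMDM, at 21.5 ± 6.13 FPKM (SD, n = 3 each), with a log2 fold change of -1.47 (limma adjusted p = 0.00258) that lost its call at the same sum (-0.26, limma adjusted p = 0.386). Fn1, the matrix protein fibronectin to which latent complexes bind and itself on the monocyte marker list, was at 121 to 135 FPKM in BMDM and at no more than 0.0298 in BSM. Itgb8 and Thbs1, other activators of the latent form, were below the minimum in both.

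Among the other receptors, 4 were tested. Bmpr1a, a type I receptor for BMPs, was at 0.0106, 0.0567 and 0.00919 FPKM in BMDM and at 1.73, 4.16 and 4.37 FPKM in BSM, a log2 fold change of 2.04 (limma adjusted p = 0.00214). Acvr2a, a type II receptor for activins, was also higher in BSM (log2 fold change 1.33, limma adjusted p = 0.0145). Acvr1b and Bmpr2 did not pass the threshold, though Bmpr2 was called higher in BSM under the 3 other scalings. The co-receptors Tgfbr3 and Eng, the endothelial type I receptor Acvrl1 and the decoy receptor Bambi were below the minimum. Of the other Smads, Smad1 and Smad5, which carry BMP signals, were tested and not called in FPKM, Smad1 with a log2 fold change of 0.67 (limma adjusted p = 0.0572; 1.04 and 0.0406 in the ALEXA-Seq values, where it was called higher in BSM) and Smad5 with 0.38 (limma adjusted p = 0.201). Both were called higher in BSM under each of the 3 other scalings. Smad6, the inhibitory Smad of the BMP branch, was below the minimum.

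Of 16 tested Smad anchors, ubiquitin ligases and phosphatases, 7 were called higher in BMDM and 1 higher in BSM. This was near the shares of 45.3% and 9.22% among all tested genes. Fkbp1a, which binds the type I receptor and keeps it silent without ligand, had a mean of 18.8 FPKM for BMDM and 4.74 for BSM, a log2 fold change of -1.81 (limma adjusted p = 0.00104) that was -0.65 (limma adjusted p = 0.0783) at the same sum. Ppp1r15a, a subunit of a phosphatase that SMAD7 brings to the type I receptor, was the gene called higher in BSM (log2 fold change 0.74, limma adjusted p = 0.0275). Of 15 tested nuclear co-factors, 7 were called higher in BMDM and 2 higher in BSM, beside the same shares of all tested genes. The 2 were Tgif2, a Smad co-repressor (log2 fold change 1.39, limma adjusted p = 0.0369), and Zeb1 (1.05, limma adjusted p = 0.0136). In BSM replicates 1 to 3, Tgif2 was at 5.165, 1.194 and 0.9825 FPKM, so it reached the minimum only through replicate 1. Without that library its log2 fold change was 0.87 (limma adjusted p = 0.0061). Zeb1 was at 2.04, 3.24 and 3.01 FPKM in BSM, close to the minimum. Zeb2, its relative that binds Smads, was higher in BMDM with a log2 fold change of -1.18 (limma adjusted p = 0.00602), which was 0.13 (limma adjusted p = 0.746) at the same sum and not called under the other scalings either. Rbl1, the p107 pocket protein that works with SMAD3, was higher in BMDM (log2 fold change -1.99, limma adjusted p = 0.00145) under every scaling. Runx3 was higher in BMDM as well (log2 fold change -1.45, limma adjusted p = 0.0123), with the call lost under quantile normalization (limma adjusted p = 0.0684), while Runx1 had a log2 fold change of 0.06 and Tgif1 of 0.34, neither called here and both called higher in BSM under the 3 other scalings. In the branch that does not run through Smads, 2 of 7 tested genes were called, both higher in BMDM, again beside these shares. They were led by the GTPase gene Rhoa (log2 fold change -1.57, limma adjusted p = 0.00211), whose call was lost with upper quartile scaling and at the same sum.

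Textbook targets of TGF-beta did not share a direction. Of the 7 that were tested, 3 were called higher in BSM and 2 higher in BMDM, beside 9.22% and 45.3% of all tested genes. Of those called, only Jun reached the FPKM minimum in both cell types. Some difference in the others was built into their entry. Pmepa1, which encodes a membrane protein that holds back SMAD2 and SMAD3, was listed at 0 in BMDM replicates 1 and 2 and at 0.0121 FPKM in replicate 3, and was at 3.61, 6.93 and 5.80 FPKM in BSM (log2 fold change 2.65, limma adjusted p = 0.000275). Jun, a subunit of the AP-1 factor that acts with Smads and also an early gene of cell stress, was at 6.10, 14.0 and 10.8 FPKM in BMDM and at 141, 97.5 and 86.4 FPKM in BSM (log2 fold change 3.31, limma adjusted p = 0.000174). Klf10, named as the TGF-beta-inducible early gene, went the other way, with 11.8, 10.6 and 14.2 FPKM in BMDM and 0, 0.649 and 1.14 FPKM in BSM (log2 fold change -3.11, limma adjusted p = 0.000191). These 3 directions held under every scaling. Id2 was higher in BMDM in FPKM (log2 fold change -1.29, limma adjusted p = 0.0204) but not called in the ALEXA-Seq values (limma adjusted p = 0.0905) or under the other scalings. Nuak1, a kinase gene, was the third called higher in BSM (log2 fold change 2.37, limma adjusted p = 0.000239). Among the 9 targets that were not tested were Id1, Id3, Ctgf and Junb.

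**Figure D5:**
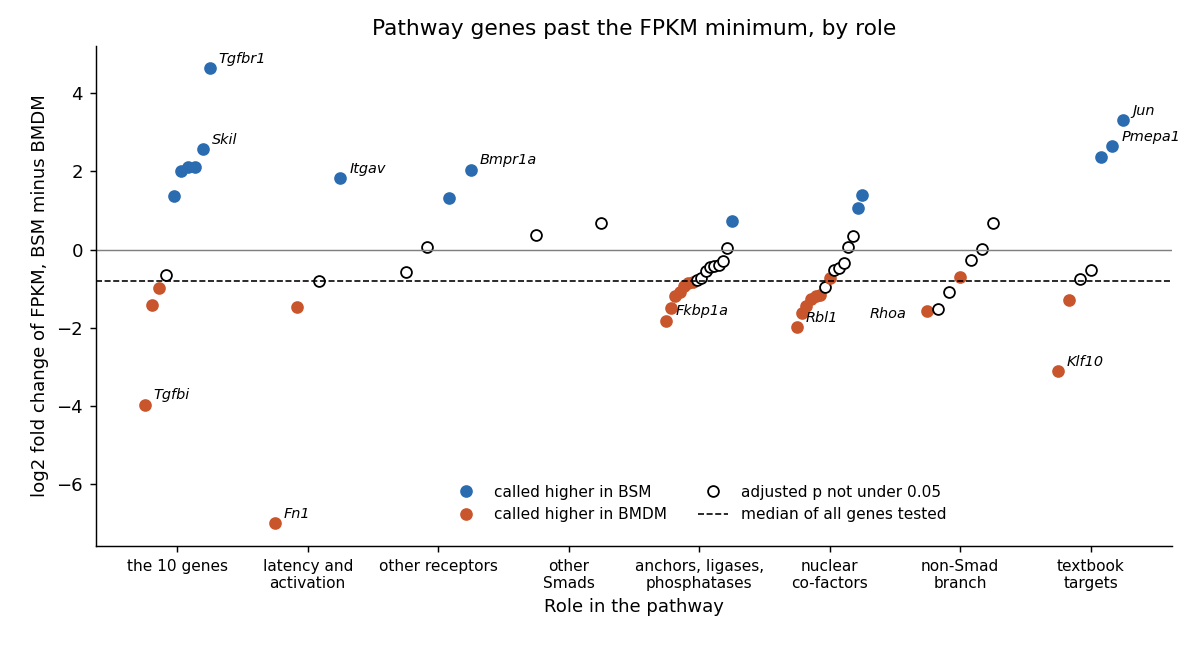
Log2 fold change of FPKM (BSM minus BMDM) of the 10 genes and of the 55 other pathway genes that passed the FPKM minimum, grouped by role; blue and orange points were called higher in BSM and in BMDM, open points were not called and the dashed line marks the median of all tested genes, -0.81. The other pathway genes farthest from that line are Fn1 at -6.99, Jun at 3.31, Pmepa1 at 2.65, Nuak1 at 2.37, Bmpr1a at 2.04, Itgav at 1.83 and Klf10 at -3.11.

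The genes whose log2(FPKM + 1) followed Tgfbr1 most closely over the 6 libraries were Tnfrsf11a (Pearson's r = 0.9993), the transcription factor gene Maf, Tmem195, the complement gene C1qa and Mthfs (r = 0.9987). In the ALEXA-Seq values the r of Mthfs was 0.873, and that of the others lay between 0.983 and 0.998. For Tgfbi the closest genes included Bnip3l, 2810417H13Rik, the citrate synthase gene Cs and 5730419I09Rik, with r between 0.9992 and 0.9995 in FPKM. The 6 points fall into the 2 cell types, so that such values follow mainly from the difference between them, and 85 of the tested genes had an r above 0.99 with Tgfbr1 and 375 with Tgfbi. Reads shared with other genes touched the 10 genes little. At most 0.95% of the 50-base stretches of a gene's longest transcript occurred in transcripts of another gene, and no other locus of the file overlapped any of the 10.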

How the data were processed

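The authors aligned paired-end reads with TopHat and deposited FPKM per gene from Cufflinks, with a second table of gene signal that ALEXA-Seq gave for the same 6 libraries. The submitters' processing notes name TopHat 1.3.1, Bowtie 0.12.7, Cufflinks 1.0.3, CASAVA 1.7.0 and the mm9 build. RNA was amplified before library construction, and neither table holds counts, so the number of reads and the counting error of each value are unknown. Starts in the FPKM file are counted from 0 and are printed counted from 1. Of 17762 genes with 1 length in GENCODE M21, 7538 had an equal span when read so, against 265 otherwise.

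From these values, limma 3.58.1 in R 4.3.3 (empirical Bayes with a mean-variance trend) compared BSM with BMDM on log2(FPKM + 1), which understates the change of low genes, for the 6364 genes that reached 3 FPKM in 1 or more libraries, with Benjamini-Hochberg adjustment over all of them. The 6364 genes with the highest ALEXA-Seq signal were tested in the same way. The step was tested on simulated data. No count test was used. Folds are ratios of mean FPKM, and ratios of 2 genes were compared with an exact permutation test in scipy 1.17.1. Other steps used Python 3.11.15, numpy 2.4.6, pandas 2.3.3 and, for plots, matplotlib 3.10.9. Windows before transcription starts came from RefSeq on GRCm38, and no coordinates were converted between builds.

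Named were all 10 genes, a fixed set of pathway genes, in each role list the gene called without overlap in both tables with the largest log2 fold change in each direction, and the 5 genes that followed Tgfbr1 and Tgfbi most closely, of which 1 is not reported here. Acvr1b, Acvr2a, Bmpr2, Smad5, Zeb1, Nuak1 and the untested targets were named after their values were seen. The genes and lists were chosen with earlier results of these data known. Alternatives were a pseudocount of 0.1, a minimum of 1 or none, 3 scalings, no trend, a block for the replicate number, library weights, leaving out each library, and a change required to exceed 1.5-fold. Lrrc32 was not analysed here. The marker lists for astrocytes, oligodendrocytes, neurons, lymphocytes, and pericytes and fibroblasts summed to at most 12.8 FPKM in any library.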

Additional observations from a re-analysis of the deposited data

How the results depend on the processing

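Tgfbr1, Tgfbr2, Smad7, Ski, Skil and Tgfbi kept their direction and their call under every alternative run, in both gene tables. The count of the 10 genes called higher in BMDM moved, as did both counts of other pathway genes. In FPKM, 3 of the 10 genes were called higher in BMDM, and 1 (Tgfbi) with upper quartile scaling, quantile normalization, the same sum or a minimum change of 1.5-fold. In the ALEXA-Seq values it was also 1 under these and with a minimum of 1 or no minimum. Leaving out 1 library gave 1 to 4 calls in each table, with 1 call without BMDM replicate 3 in FPKM and without any 1 of the BMDM libraries or BSM replicate 3 in the ALEXA-Seq values. The other pathway genes called higher in BMDM, 20 of 55, were 7, 7, 4 and 9 with upper quartile scaling, quantile normalization, the same sum and a minimum change of 1.5-fold, 34 with library weights, and 13 to 27 with 1 library left out (13 without BMDM replicate 3). Those called higher in BSM, 9 of 55, were 14, 16, 20 and 5 under the first 4 of these settings. The cause of these moves was not tested. Shares of all tested genes called were computed only for the values as deposited and, in FPKM, for the 3 scalings. Counts under the other settings have no such share beside them and are no result about these genes in particular. The log2 fold change of Smad2 reversed to 0.12, 0.10 and 0.54 in FPKM and to 0.26, 0.24 and 0.81 in the ALEXA-Seq values with upper quartile scaling, quantile normalization and the same sum, the last with a limma adjusted p of 0.0454 in favor of BSM. That of Smad4 reversed to 0.034 in FPKM and 0.26 in the ALEXA-Seq values at the same sum. The deviations of samples with the same replicate number had correlations of -0.019, -0.008 and 0.134. Those of samples with different numbers had correlations of -0.113 to 0.068. With 3 libraries of each type, such values cannot settle whether the numbers pair the samples. With the replicate block, 3 and 6 of the 10 genes were called higher in BMDM and in BSM in FPKM, as without it. In the ALEXA-Seq values these were 2 and 6, and in FPKM 17 of the other pathway genes were called higher in BMDM. The 4 ratios kept their direction and gave 1.86, 3.17, 0.92 and 4.55 with the block as well. In the ALEXA-Seq values the calls of Tgfb1 and Smad4 were lost under 12 of the alternatives each and kept under 5 each, the losses of Smad4 including its reversal. With 3 libraries in each group, 1 library could decide the calls of Smad2, Smad4 and Tgfb1 in both tables and that of Smad3 in FPKM. In the ALEXA-Seq values Smad3 kept its call under every alternative.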
